A study of Trametes versicolor and Gelatoporia subvermispora with 30 samples.

Results

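VP2 is a gene of the white-rot fungus Trametes versicolor whose symbol stands for a versatile peroxidase. It was found as the single row named VP2 (locus tag TRAVEDRAFT_26239) among the 14570 genes of the 15 T. versicolor count files, so 1 gene is described here across 5 culture conditions. The gene was chosen by its measured levels in these libraries, which were low with poplar, lignin and syringic acid and high with 4HBA and on cellobiose, and those differences are therefore given as values without a test. The choice did not use the difference between 4HBA and cellobiose, nor the differences among syringic acid, lignin and poplar, and these were tested.

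Versatile peroxidases are secreted heme enzymes of the class II family of fungal peroxidases. They use hydrogen peroxide to oxidise manganese(II), as manganese peroxidases (MnP) do, and also take electrons from phenolic and non-phenolic aromatics at the enzyme surface, as lignin peroxidases (LiP) do. White-rot fungi are known for using such enzymes to open the lignin polymer of wood.

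The mycelium was grown in a defined minimal medium of Czapek-Dox type, and all groups came from seed cultures in a rich medium. The groups were milled poplar wood without cellobiose (2 g in 25 mL), cellobiose (5 g per litre) with 25 mg of isolated poplar lignin in 25 mL, cellobiose with 2 mM syringic acid, cellobiose with 2 mM 4-hydroxybenzoic acid (4HBA), and cellobiose alone. Each group had 3 libraries of total RNA depleted of ribosomal RNA. The labels do not say whether these were separate cultures, so p-values measure only the spread between libraries, which may be technical.

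Reads counted in genes came to 16.7 to 50.4 M (mega) per library, and 12295 genes passed the expression filter. The 6 libraries of the 4HBA and cellobiose groups stood apart from the 9 others. In the poplar, lignin and syringic acid libraries the 10 most abundant genes took 3.84% to 7.45% of gene counts, and in the 4HBA and cellobiose libraries 41.9% to 48.4%. The part of all counts not assigned to a gene was 9.60% to 14.2% with poplar, lignin and syringic acid. With 4HBA and cellobiose it was 45.8% to 48.7%. It includes unaligned reads, 2.76% to 4.25% in the former groups and 21.2% to 23.4% in the latter. Reads aligned outside counted features made up 6.25% to 9.52% and 21.1% to 22.1%, in the same order. Ambiguous reads, likewise not assigned to a gene, made up 0.228% to 0.328% and 2.79% to 3.10%. The 6 libraries that stood apart are those in which VP2 was high. In comparisons across that line, library make-up and culture condition cannot be told apart. The comparisons of 4HBA with cellobiose, and those among poplar, lignin and syringic acid, stay on one side of it. Poplar libraries still differed from those of lignin and syringic acid. Their 10 most abundant genes took 6.53% to 7.45% of gene counts, against 3.84% to 4.40%. Their reads in genes came to 42.2 to 50.4 M, against 16.7 to 27.3 M.

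VP2 was read at least 461 times in every library. The raw counts of VP2 were 480, 546 and 461 in the poplar libraries, 2590, 3917 and 4311 with lignin, 4844, 1898 and 4060 with syringic acid, 8853, 7010 and 9564 with 4HBA, and 7450, 6190 and 7051 on cellobiose. Levels below are normalised CPM, counts per M reads in genes, after the TMM method had scaled the libraries to each other. The smallest VP2 level, in a poplar library, had a 95% Poisson interval of 9.64 to 11.6 CPM, so counting error was small beside the differences between conditions. A count of 0 would allow up to 0.0613 to 0.205 CPM, depending on the library, with 3 counts as the limit. Intervals and limits describe counting error alone, because without molecular identifiers several reads can stem from 1 molecule.

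On milled poplar VP2 was at 11.3, 11.2 and 10.6 CPM. With lignin it was at 72.1, 109 and 110.0 CPM, and with syringic acid at 124, 75.5 and 126 CPM. The values of these last 2 groups overlapped, and the poplar libraries lay below all of them. With 4HBA the level was 532, 478 and 627 CPM, and on cellobiose alone it was 479, 363 and 385 CPM. All 6 of these libraries lay above the 9 others, and both groups overlapped at their edges, where the lowest 4HBA library stood just under the highest cellobiose library.

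**Figure D1:**
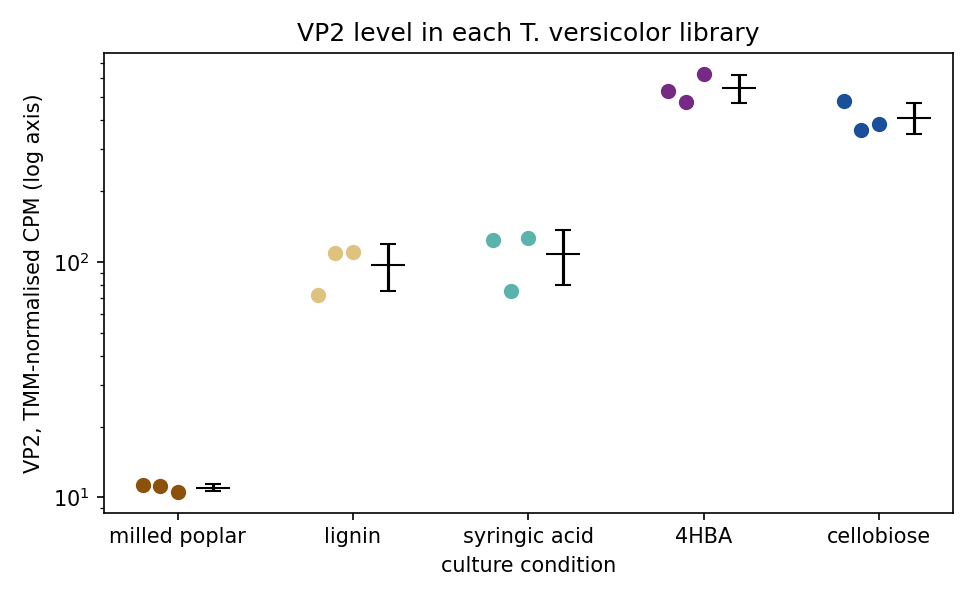
VP2 level in TMM-normalised CPM (log axis) for each of the 15 T. versicolor libraries by culture condition. Points are libraries, and black bars give the mean ± SD of 3 libraries. The poplar libraries sit near 11 CPM, the lignin and syringic acid libraries between 72.1 and 126 CPM, and the 4HBA and cellobiose libraries between 363 and 627 CPM.

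VP2 averaged 11.0 ± 0.382 CPM on poplar, 96.9 ± 21.5 CPM with lignin, 108 ± 28.5 CPM with syringic acid, 546 ± 75.5 CPM with 4HBA and 409 ± 61.6 CPM on cellobiose (SD, n = 3 each). By mean level 4HBA was highest, followed by cellobiose, syringic acid, lignin and poplar. In bulk RNA, fewer hyphae expressing the gene and less of its RNA per hypha cannot be told apart. The libraries of the neighbours 4HBA and cellobiose overlapped, as did those of syringic acid and lignin, and neither difference was called in the fit of all 15 libraries. Libraries varied most with syringic acid, where the SD was 26.3% of the mean, and least on poplar, where it was 3.47%. The lowest libraries of the intermediate groups were lignin replicate 1 and syringic replicate 2. Among all 14570 genes, ranked by raw count within a library, VP2 stood between place 6964 and place 7104 in the poplar libraries, and between place 179 and place 327 in the 4HBA and cellobiose libraries. Raw counts favour long genes. Ranked by counts per kilobase of gene span, VP2 stood lower, at places 7504 to 7664 and 292 to 471 in the same libraries.

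The steps that the choice of gene did not use were tested with edgeR's quasi-likelihood F-test, two-sided and Benjamini-Hochberg adjusted over the 12295 genes. Poplar and lignin cultures differed by -3.14 on the log2 scale (SE 0.21, 95% interval -3.58 to -2.70, adjusted p = 2.07e-09), so that VP2 fell 8.80-fold on wood relative to isolated lignin. In that comparison 76.8% of all tested genes were called, meaning an adjusted p below 0.05, and 39.4% were called lower, so a call was common. A lower log2 difference than that of VP2 was found in 2.03% of tested genes. VP2 also fell on poplar relative to syringic acid, by 3.30 on the log2 scale (95% interval -3.74 to -2.86, adjusted p = 1.56e-09), where 72.5% of genes were called and 1.52% had a lower difference. Both comparisons use the same poplar libraries. Poplar cultures also lacked the cellobiose that the other 4 groups received, so wood and the missing sugar cannot be told apart.

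Lignin and syringic acid gave VP2 levels that the test could not separate. Their log2 difference was -0.16 (SE 0.19, 95% interval -0.56 to 0.23, adjusted p = 0.628 with edgeR), and 8.74% of all genes were called in this comparison. Without lignin replicate 1 the difference was 0.01, so even its sign rested on that library. The interval leaves room for a VP2 level with lignin somewhat below or above that with syringic acid.

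With 4HBA, VP2 averaged 1.33-fold the cellobiose level, a log2 difference of 0.42 (SE 0.19, 95% interval 0.02 to 0.81) that was not called by edgeR (adjusted p = 0.147, unadjusted p = 0.0404). In this comparison 16.4% of genes were called, and 9.0% were called higher. The call depended on the fit. With the 4HBA and cellobiose libraries fitted alone, without the spread of the other groups, the difference was 0.41 and the adjusted p of edgeR was 0.0276. Over the other alternatives the adjusted p ran from 0.106 to 0.382, and the difference stayed above 0 in each.

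The differences for which VP2 was chosen were large and are a description. Its mean was 3.78-fold lower with syringic acid, 4.22-fold lower with lignin and 37.2-fold lower on poplar than on cellobiose, or -1.92, -2.08 and -5.21 as log2 changes of the fit. These 3 comparisons share the cellobiose libraries. Between the aromatic acids, both at 2 mM, VP2 was 5.04-fold lower with syringic acid than with 4HBA (log2 difference -2.33). The difference in structure is the pair of methoxy groups flanking the hydroxyl in syringic acid, which 4HBA lacks. That is the only pair of acids at a matched dose here, and its libraries differ in make-up as described above.

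The scaling of libraries bears on the size of these values. With libraries scaled by total gene counts alone, VP2 averaged 158 CPM with syringic acid, 141 CPM with lignin, 367 CPM with 4HBA and 287 CPM on cellobiose, and the log2 changes against cellobiose shrank to -0.86 for syringic acid and -1.03 for lignin. The median of all genes then stood at 1.12 in each of these comparisons, against 0.07 with TMM scaling, so that relative to the median gene the VP2 changes were of like size under either scaling. Poplar against cellobiose was -4.72 with total counts. The ranges of the libraries on either side of the line did not overlap under TMM, RLE, upper-quartile or total-count scaling.

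**Figure D2:**
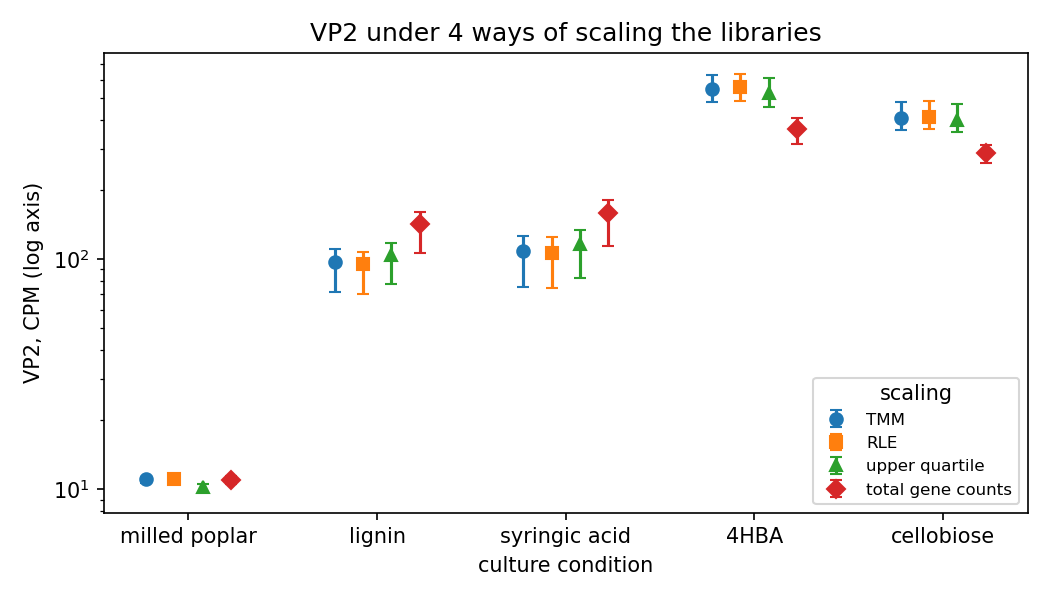
VP2 level in CPM (log axis) by culture condition under 4 ways of scaling the libraries. Symbols are means of 3 libraries and bars run from the lowest to the highest library. With total gene counts the lignin mean is 141 CPM and the cellobiose mean 287 CPM, and with TMM they are 96.9 and 409 CPM, and the poplar mean stays near 11 CPM.

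VP2 was compared with its own family next, since a share within a library needs no scaling between libraries. The files hold 26 class II peroxidase symbols, 3 VP, 10 LiP and 13 MnP, and all 26 passed the expression filter. VP2 made up 6.52%, 6.53% and 6.46% of class II counts in the poplar libraries. Its share was 34.6%, 40.8% and 42.5% with lignin and 38.5%, 32.1% and 43.1% with syringic acid. With 4HBA it was 76.1%, 75.9% and 79.0%, and on cellobiose 61.3%, 57.6% and 61.3%. The widest exact 95% binomial interval of a single share ran from 30.9% to 33.3%. In this measure the 4HBA and cellobiose libraries did not overlap. The other 25 members summed to 167, 152 and 167 CPM with 4HBA, against 302, 268 and 243 CPM on cellobiose, so the higher share came with a lower sum of the rest as well as with the uncalled difference of VP2 itself. The shares contain the VP2 counts that led to its choice and are a description.

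**Figure D3:**
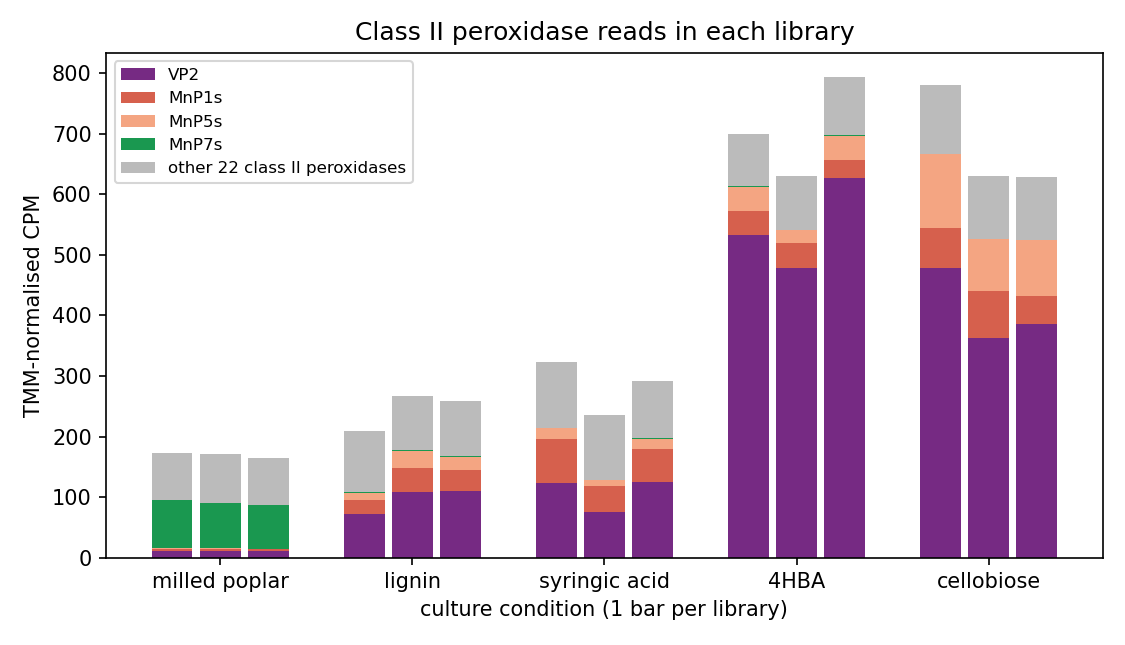
Normalised CPM of the 26 class II peroxidases in each of the 15 libraries, 1 bar per library, stacked as VP2, MnP1s, MnP5s, MnP7s and the other 22 members. VP2 fills most of each 4HBA and cellobiose bar, and in each poplar bar MnP7s is the largest of the 4 parts that stand for a single gene.

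Levels of different genes were compared per kilobase of gene span, introns included, taken from the RefSeq table of the Trametes versicolor v1.0 assembly. On poplar VP2 averaged 5.25 CPM per kilobase and held place 4 or 5 among the 26, while MnP7s led at 53.4. VP2 was the highest class II member in all 12 other libraries. With lignin its mean was 46.2 CPM per kilobase, against 24.1 for MnP1s, and with syringic acid it was 51.6, against 42.1 for MnP1s. It averaged 260 CPM per kilobase with 4HBA, where the next member by mean, MnP1s, was at 27.8, and 195 on cellobiose, where MnP5s followed at 56.8. Counted per kilobase, the mean VP2 share of the family was 4.56% on poplar, 30.8% with lignin, 29.1% with syringic acid, 69.8% with 4HBA and 51.7% on cellobiose.

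The other genes with a VP symbol were low in every condition. VP1 was at 0.656 to 1.61 CPM and VP3at at 0.872 to 3.14 CPM over the 15 libraries. VP1 was not called by edgeR in any of the 8 comparisons with TMM scaling. By total gene counts all 25 members other than VP2, VP1 included, were called with syringic acid against cellobiose. The median of all genes was then 1.12. VP3at averaged 1.24 ± 0.389 CPM on poplar and 2.73 ± 0.422 CPM with lignin (SD, n = 3 each). It was called lower on poplar, with an adjusted p of 0.000104 against lignin and 0.000475 against syringic acid. Its call on poplar against cellobiose (log2 change -0.71, adjusted p = 0.0131) was lost with total-count scaling and without poplar replicate 3, cellobiose replicate 2 or cellobiose replicate 3. Its call with syringic acid against 4HBA (0.72, adjusted p = 0.0228) was lost without syringic replicate 3 or any single 4HBA library. Per kilobase, VP2 stood at 6.48 to 11.5 times the level of VP3at on poplar and at 143 to 393 times that level in the 4HBA and cellobiose libraries. Reads shared by close members of the family could have been split or dropped in the authors' counting, which makes single members less certain than their sum.

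Among the 25 class II members other than VP2, the changes ran in both directions. With 4HBA against cellobiose 1 was called higher and 5 lower, where 9.0% and 7.35% of all genes were called in those directions, and 22 of the 25 had a lower log2 change than VP2, as did 90.5% of all tested genes. MnP5s (log2 change -1.55), MnP3s (-1.37) and MnP1s (-0.77) were called lower, the last of these not without 4HBA replicate 1 or 3 or cellobiose replicate 1 or 2. The 25 had a median log2 change of -0.13, and all tested genes one of 0.00. The count of called members was 6, and it was 3 without 4HBA replicate 1 or without cellobiose replicate 1.

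With syringic acid against cellobiose 7 of the 25 were called higher and 5 lower, beside 27.1% and 22.4% of all genes (49.5% in either direction). In the comparison of lignin with cellobiose 5 were called higher and 7 lower, beside 26.9% and 23.0% (49.9% in either direction). These shares are near the background. They moved with the scaling. By total gene counts 24 were called higher and 1 lower with syringic acid, and 20 higher and 2 lower with lignin. The median of all genes was then 1.12 in both comparisons, against 0.07 with TMM. The share of all genes called under total-count scaling was not tallied, here or below, so these counts have no background beside them. In each of these comparisons 1 member, MnP5s, had a lower log2 change than VP2. VP2 was chosen for its lower level here, so its place beside the 25 is a description. MnP5s, at 14.6 ± 5.03 CPM with syringic acid, 20.9 ± 8.03 CPM with lignin and 100.0 ± 19.2 CPM on cellobiose, fell by 2.76 and 2.25 on the log2 scale (SD, n = 3 each).

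Against 4HBA, syringic acid left 7 of the 25 called higher and 2 lower, beside 26.2% and 22% of all genes (48.2% in either direction). None had a lower log2 difference than VP2, but VP2 was chosen for this difference, so its place is a description. MnP3s and MnP1s, which were lower with 4HBA than on cellobiose, were called higher with syringic acid than with 4HBA, by 0.76 and 0.60. The call of MnP1s was lost with RLE scaling and without syringic replicate 1, 4HBA replicate 1 or 4HBA replicate 3. By total gene counts 24 members were called higher and 0 lower, and the median of all genes was 1.21, against 0.10 with TMM. The count of 9 called members was 4 without 4HBA replicate 1 and 5 without 4HBA replicate 2.

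Lignin and syringic acid differed in 2 of the 25, MnP3s (-1.17) and MnP1s (-0.81), both called lower with lignin, and 0 were called higher, beside 4.79% of all genes called lower and 3.95% called higher. MnP1s was not called when both groups were fitted alone, nor without lignin replicate 1 or 3 or syringic replicate 1 or 3, which left a count of 1. In single libraries MnP1s was at 22.3, 39.1 and 34.6 CPM with lignin, against 71.2, 43.1 and 53.4 CPM with syringic acid, without overlap. For VP2, whose libraries overlapped, the change was smaller, and the difference in change between these genes was not tested.

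On poplar, members of the family changed in both directions. Against lignin 6 of the 25 were called higher and 12 lower, beside 37.4% and 39.4% of all genes, and against cellobiose 6 were called higher and 8 lower, beside 35.7% and 35.4% (71.2% in either direction). By total gene counts the tally against cellobiose was 10 higher and 7 lower, and the median of all genes was 0.47. MnP7s rose by 6.16 on the log2 scale relative to lignin, at 75.4 ± 3.73 CPM on poplar against 1.05 ± 0.0834 CPM with lignin (SD, n = 3 each, adjusted p = 4.57e-14 with edgeR). MnP5s fell by 4.37 and MnP1s by 3.37 on the same scale, and these 2 were the members with a lower log2 difference than VP2. Against syringic acid, where 5 were called higher and 15 lower beside 35.0% and 37.4% of all genes, MnP1s (-4.18), MnP5s (-3.86) and MnP3s (-3.70) lay below VP2.

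Of the 10 lignin peroxidases, 4 were called higher and 3 lower on poplar than with lignin, near the 37.4% and 39.4% of all genes, with a median log2 difference of -0.07, against -0.04 for all genes. The 13 manganese peroxidases had 2 higher and 8 lower, with a median of -1.27. Under total gene counts the class II members called on poplar against lignin, VP2 left out, became 3 higher and 18 lower, and the median of all genes moved to -0.595.

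**Figure D4:**
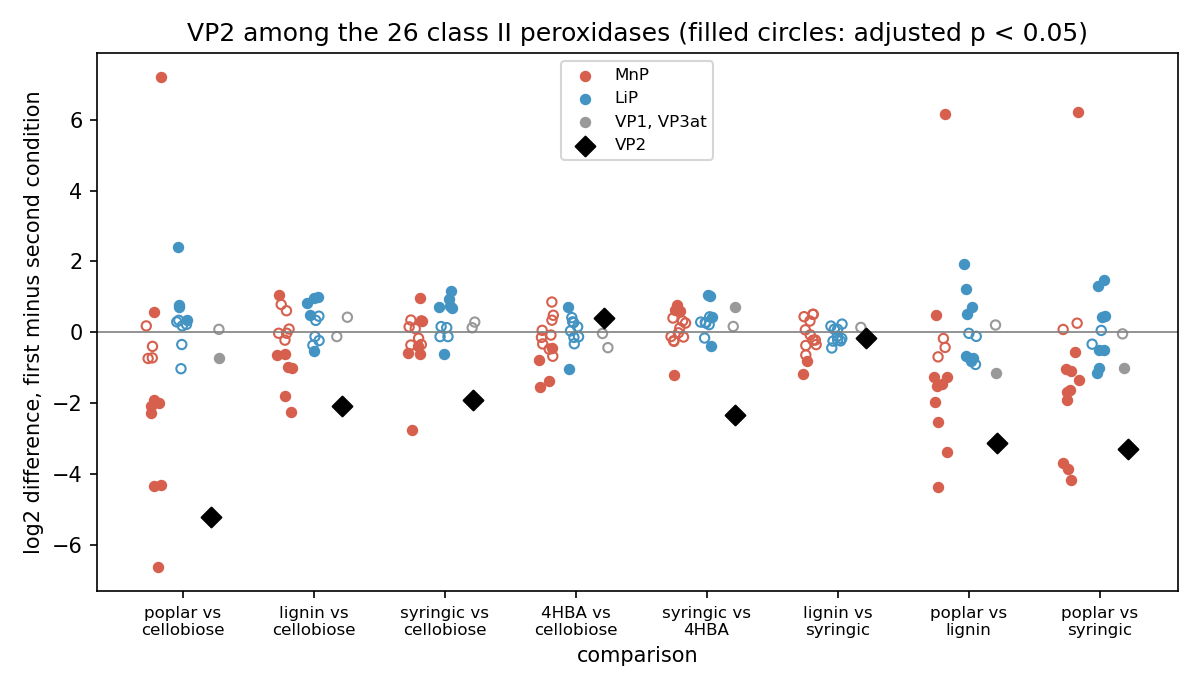
Log2 difference, first minus second condition, of the 26 class II peroxidases in 8 comparisons. Circles are MnP, LiP and the other VP symbols, filled where the adjusted p of edgeR was below 0.05, and black diamonds are VP2, drawn alike whether or not it was tested. VP2 lies at -5.21 on poplar against cellobiose, at 0.42 with 4HBA against cellobiose and at -0.16 with lignin against syringic acid.

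A pair of further lists of oxidative enzymes were counted, with no set test. The 7 laccases, copper enzymes that oxidise phenols, had 0 members called higher and 5 lower on poplar against lignin, where 37.4% of all genes were called higher and 39.4% lower. They had 3 higher and 1 lower with lignin against syringic acid, beside 3.95% and 4.79% of all genes. The 8 symbols of dye-decolorizing peroxidases, heme-thiolate peroxidases, LDO and the mitochondrial cytochrome c peroxidase had 1 higher and 5 lower on poplar against lignin, and 0 higher and 1 lower with lignin against syringic acid. With 4HBA against cellobiose the laccases had 1 higher and 0 lower, and the 8 had 0 higher and 4 lower, beside 9.0% and 7.35% of all genes.

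Genes with a profile like that of VP2 were sought by the Pearson correlation of log2 CPM over the 15 libraries, among 8030 genes that reached a mean of 10 CPM in a condition. The 5 closest had no symbol beyond a locus tag. TRAVEDRAFT_118266 had r = 0.995, and its level was 6.35 ± 0.290 CPM on poplar, 35.6 ± 9.92 CPM with lignin, 31.4 ± 7.58 CPM with syringic acid, 106 ± 5.95 CPM with 4HBA and 80.5 ± 6.43 CPM on cellobiose (SD, n = 3). Its order of conditions thus matched that of VP2 except for lignin and syringic acid. TRAVEDRAFT_172511 (r = 0.993), TRAVEDRAFT_74763 (0.993), TRAVEDRAFT_122666 (0.990) and TRAVEDRAFT_141203 (0.990) followed. The levels of these genes spanned a narrower range than that of VP2, for example 82.0 CPM on poplar and 258 CPM with 4HBA for TRAVEDRAFT_172511.

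Among genes with a symbol the closest were TvFet3A (r = 0.977), by its symbol a ferroxidase of iron uptake, the laccase TvLac1 (0.946) and MnP5s (0.938). They held places 28, 161 and 201. By mean level all 3 were highest on cellobiose alone. TvFet3A was at 187 ± 11.4 CPM with 4HBA and 207 ± 48.3 CPM on cellobiose, a gap within the spread. TvLac1 was at 245 ± 37.8 CPM with 4HBA and 324 ± 62.5 CPM on cellobiose, and MnP5s at 34.1 ± 10.8 CPM with 4HBA and 100.0 ± 19.2 CPM on cellobiose (SD, n = 3 each). The difference between 4HBA and cellobiose was called for MnP5s and not for TvLac1 (edgeR adjusted p = 0.247) or VP2. Of the 8 class II members in this comparison, MnP7s had the most negative r, -0.888. A high r was common, as 453 genes, or 5.64%, reached 0.9. The points share their libraries and the split in library make-up, and the 3 poplar libraries weigh heavily: without them the r of the 5 closest genes ran from 0.966 to 0.982 and none of the 5 stayed among the first 5.

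**Figure D5:**
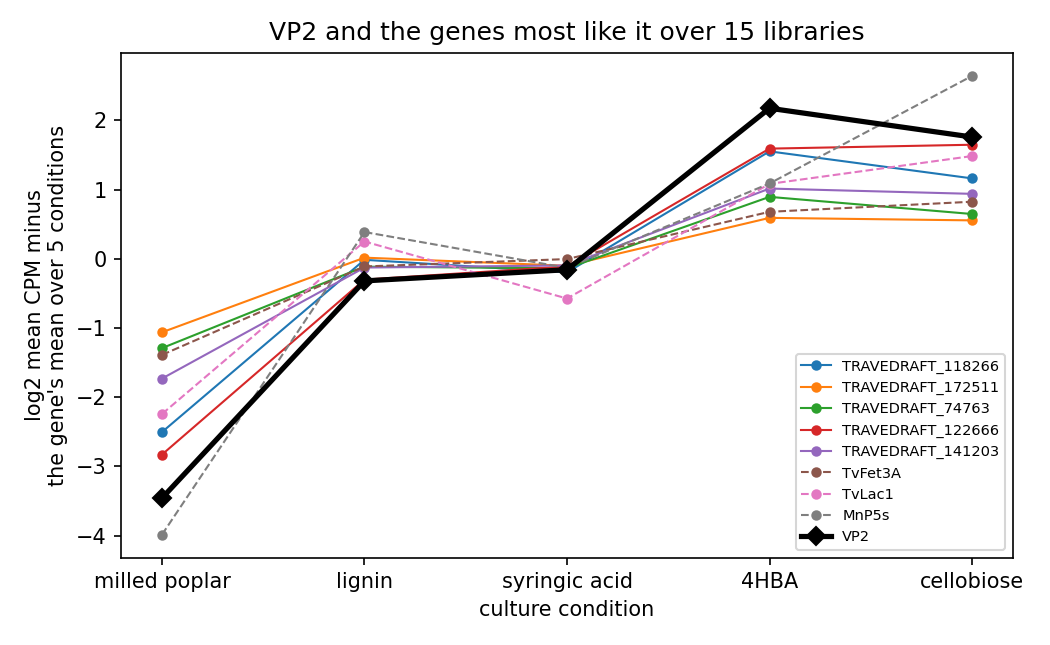
Mean log2 CPM of VP2 (black) and of the genes most like it in each culture condition, with the mean of each gene over the 5 conditions set to 0. Solid lines are the 5 genes with the highest Pearson r over 15 libraries and dashed lines the 3 closest genes with a symbol. All are lowest on poplar, and VP2 is highest with 4HBA while MnP5s is highest on cellobiose.

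The tested genes beside VP2 in the reference table differed in profile, some running with VP2 and some against it. Their r with VP2 ran from -0.833 (TRAVEDRAFT_55960) to 0.911 (TRAVEDRAFT_62539). Of 5 genes on either side, 8 code for proteins and 2 for transfer RNAs, none is a class II peroxidase symbol, and 7 passed the expression filter. TRAVEDRAFT_113364, the next gene in the order of the table, was called higher with syringic acid than on cellobiose (log2 change 1.15, at 4.45 ± 1.31 CPM against 1.99 ± 0.127 CPM, SD, n = 3 each) and with lignin than on cellobiose (0.95), conditions in which VP2 was low. It was also called higher with 4HBA than on cellobiose (0.73) and lower on poplar than with lignin (-1.30) or with syringic acid (adjusted p of edgeR 2.6e-06), differences with the same signs as those of VP2. TRAVEDRAFT_62539, 3 places on, was at 0.958 ± 0.318 CPM on poplar, 2.94 ± 1.04 CPM with lignin, 2.67 ± 0.218 CPM with syringic acid, 4.15 ± 0.345 CPM with 4HBA and 5.55 ± 0.670 CPM on cellobiose, and had r = 0.911 with VP2. Its means stayed below the 10 CPM required of the genes compared above, of which 5.64% reached an r of 0.9. TRAVEDRAFT_62539 was called lower with syringic acid, lignin and poplar than on cellobiose. It was also called lower with syringic acid than with 4HBA, and on poplar than with lignin or syringic acid. With syringic acid 4 of the 7 were called lower than on cellobiose (log2 changes -1.05 to -0.22), beside 22.4% of all genes. Against 4HBA, 3 were called lower with syringic acid, beside 22%. Lignin and poplar each had 2 called lower against cellobiose, beside 23.0% and 35.4%. All neighbour calls with syringic acid, lignin or poplar against cellobiose or 4HBA cross the line in library make-up. They were not tallied under other scalings. By total gene counts the median of all genes was 1.12 for syringic acid and for lignin against cellobiose, against 0.07 with TMM. Calls of neighbours in these comparisons are therefore tied to TMM scaling. On poplar against lignin 3 of the 7 were called lower, beside 39.4% of all genes. There 2 were called higher, TRAVEDRAFT_55960 (1.04) and TRAVEDRAFT_17178 (0.28), beside 37.4%.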

How the data were processed

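RNA was sequenced in 15 T. versicolor libraries, 3 in each of 5 culture conditions. The deposited values are counts of reads per gene, which the files hold as whole numbers with differing totals. Of tools, FastQC, Bowtie2, Bowtie and HTSeq appear in the submitters' processing notes. Their settings and versions, the genome build and the strand setting of the counting were not given in the sources used here. Per the labels, the library kit marks strand. Lines for reads not assigned to a gene, unaligned and ambiguous reads included, held 9.60% to 48.7% of all counts. These lines were left out of library sizes and tests. The line for reads with more than 1 alignment is 0 in every file.

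Counts were TMM-normalised and fitted with edgeR 4.0.16 in R 4.3.3, all 15 libraries together with 1 mean per condition and edgeR's default expression filter. Calls are two-sided quasi-likelihood F-tests at a Benjamini-Hochberg adjusted p below 0.05 over all tested genes. Standard errors were derived from the log2 change and its F. The biological coefficient of variation was 0.110 as the common value over all genes and 0.163 for VP2 itself. Log2 CPM used a prior count of 2. Replicate libraries differed by more than counting error, with a chi-square per gene of 7.24 to 61.5, so none was a copy of another. Gene lengths and neighbours come from the RefSeq table of the v1.0 assembly, matched by symbol or locus tag for 14560 of 14570 genes.

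Named genes are VP2, the VP symbols, up to 3 class II members with the largest called rise and fall per comparison at 10 CPM or more, the 5 genes and 3 symbols most like VP2, and 5 genes on either side of it, from which examples were taken. VP2 and the lists were chosen with earlier results of these data known. Alternatives were RLE, upper-quartile and total-count scaling, leaving out the 12 genes above 1% of counts, no filter, the compared groups alone, DESeq2 1.42.0, and leaving out each library. The Gelatoporia subvermispora libraries were not analysed here.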

Additional observations from a re-analysis of the deposited data

How the results depend on the processing

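No paired analysis was possible because the titles give running library numbers that no 2 groups share, and the replicate numbers used here only name libraries in their order of deposit. For VP2, poplar against lignin and against syringic acid kept direction and call under every alternative run. The uncalled 4HBA difference was called when its 2 groups were fitted alone (0.41). The lignin and syringic acid difference turned to 0.0115 without lignin replicate 1, and leaving out single libraries gave -0.37 to 0.01. With total gene counts the VP2 log2 changes were -0.86 for syringic acid, -1.03 for lignin and -4.72 for poplar against cellobiose, and -1.22 for syringic acid against 4HBA. The same setting gave 25 called class II members other than VP2 for syringic acid and 22 for lignin against cellobiose, in place of 12 each. For syringic acid against 4HBA it gave 24, in place of 9. The medians of all genes moved to 1.12, 1.12 and 1.21, and the share of all genes called was not tallied. Leaving out single libraries gave 3 to 5 for 4HBA against cellobiose (6 with all libraries), 4 to 8 for syringic acid against 4HBA and 1 to 3 for lignin against syringic acid, which was 1 with both groups alone. Per gene length the mean VP2 share of the family was 4.56%, 30.8%, 29.1%, 69.8% and 51.7% on poplar, lignin, syringic acid, 4HBA and cellobiose. Of the 5 genes most like VP2, 1 stayed among the first 5 with Spearman's rho and 0 without the poplar libraries. In these cases the cause was not tested. Depth limits VP1 and VP3at, at 0.656 to 3.14 CPM, more than VP2.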
